A study of Mus musculus with 2 samples.

Results

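Laminins and integrins were read out in single nuclei of mouse tibialis anterior (TA) muscle. The genes were taken by symbol: the laminin chain genes (Lama, Lamb or Lamc with 1 digit) and the genes of integrin alpha and beta subunits (Itga and Itgb). This gave 37 of the 32285 genes counted, with 11 laminin chains, 18 alpha subunits and 8 beta subunits. The pattern also took 5 symbols that were left out, namely Itgb1bp1, Itgb1bp2 and Itgb3bp, which encode integrin-binding proteins, and Itgb2l and Itgbl1, which encode integrin beta-like proteins. All 37 genes had at least 1 unique molecular identifier (UMI, 1 counted RNA molecule), from 3 UMIs for Lama1 to 25591 for Lama2 over both libraries. The rule used symbols and no measured value.

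Laminins are secreted as trimers of an alpha, a beta and a gamma chain, and they form the sheet of the basement membrane that surrounds each muscle fibre, vessel and nerve. Integrins are receptors made of an alpha and a beta subunit, which bind laminin, collagen, fibronectin or other cells outside and the cytoskeleton inside. In skeletal muscle the trimer with the alpha 2 chain is the main laminin of the fibre surface, and it is held by the integrin of alpha 7 and beta 1 and by dystroglycan. Loss of the alpha 2 chain or of integrin alpha 7 causes muscular dystrophy.

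The study asked how loss of the transcriptional repressor BCL6 in muscle fibres alters gene expression. One library was labelled KO and was made from Myf6-Cre+ Bcl6 fl/fl mice, in which Cre, driven by the promoter of the myogenic gene Myf6, removes exons 7 to 9 of Bcl6. The other was labelled WT and came from Myf6-Cre+ Bcl6 wt/wt littermates, so Cre is present in both groups. Each library pooled nuclei from the right and left TA of 2 male mice aged 6 weeks on a C57BL/6 background, sorted by flow cytometry with the DNA dye 7-AAD, and no other time or treatment was used.

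With 1 library per genotype, no difference between genotypes could be tested. Ratios are therefore given with exact 95% intervals that cover counting error only, and nuclei are not replicates. After filtering, 3674 nuclei with 11430179 UMIs remained in the library labelled WT and 3944 nuclei with 11470460 UMIs in that labelled KO, and 6 barcode sequences were shared by both. Bcl6 itself was counted in myonuclei at 167 CPM (counts scaled to the same total of UMIs in each class and library) in the library labelled WT and 501 CPM in that labelled KO, a log2 ratio of 1.58 (1.497 to 1.67). By RT-qPCR, a different measure, the study reported that Bcl6 mRNA was deleted in the TA of older mice. The counts over the whole gene were not lower in the library labelled KO, and counts per gene do not show whether the RNA held the deleted exons. Every direction below is therefore that of the KO-labelled over the WT-labelled library.

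Nuclei were clustered without the 37 genes, and clusters were named from fixed markers. Myonuclei, the nuclei of muscle fibres, made up 64.6% of the library labelled WT (2374 nuclei) and 77.3% of that labelled KO (3050 nuclei). Nuclei like those of the myotendinous junction (MTJ), where the fibre meets the tendon, numbered 25 and 30. The other classes were like fibro-adipogenic progenitors (FAPs, 482 and 328 nuclei), endothelium (223 and 130), muscle stem cells (MuSCs, 186 and 126), pericytes or smooth muscle (159 and 117), macrophages (97 and 62), tenocytes (59 and 55) and Schwann cells (32 and 22). RNA of fibres was counted outside fibres too, and unevenly: the summed level of 10 myonuclear markers was 97649 and 113497 CPM in myonuclei, 1636 and 4013 CPM in FAP-like nuclei and 2673 and 9651 CPM in macrophage-like nuclei. Its part in the values below was not tested.

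Of the 37 genes, 20 had 200 UMIs or more. None of these 20 was led by body myonuclei in both libraries, where the leading class is that with the highest CPM among the 9 classes with at least 20 nuclei in each library. The same class led in both libraries for 10 genes, and for 6 of them (Lama2, Lama4, Lamb1, Itga4, Itga10 and Itgb1) the interval of the leading class lay above that of the next class in both. For the other 14 genes the leader differed between the libraries or the intervals of the first and the next class overlapped in at least 1 of them. The heat map shows that most of these genes were shared by several non-fibre classes. Itga4 and Itga10 each stood out in 1 class, and Itgb6 was high in myonuclei and MTJ-like nuclei and near 0 in most others.

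**Figure D1:**
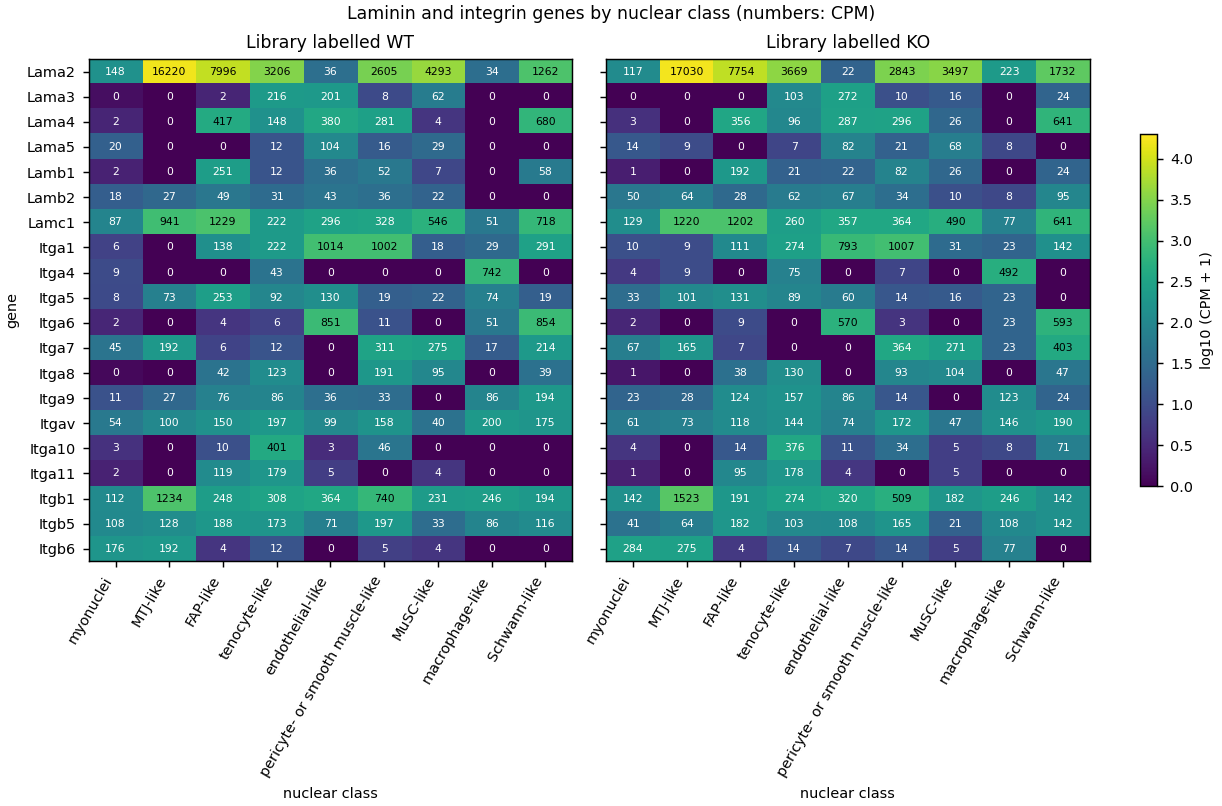
Levels of the 20 laminin and integrin genes with 200 UMIs or more (rows) in 9 nuclear classes (columns), with the library labelled WT on the left and that labelled KO on the right. Colour is log10 of CPM + 1 and the number in each cell is CPM. Lama2 is brightest in MTJ-like nuclei (16220 and 17030 CPM), Itga4 stands out in macrophage-like nuclei (742.5 and 492 CPM), and Itgb6 is seen in myonuclei and MTJ-like nuclei.

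Among the alpha chains, Lama2, the chain lost in congenital muscular dystrophy, was highest in MTJ-like nuclei at 16220 CPM in the library labelled WT and 17030 CPM in that labelled KO. FAP-like nuclei followed at 7996 and 7754 CPM, then MuSC-like nuclei at 4293 and 3497, tenocyte-like nuclei at 3206 and 3669, pericyte- or smooth muscle-like nuclei at 2605 and 2843 and Schwann-like nuclei at 1262 and 1732. Body myonuclei held only 148 and 117 CPM and endothelial-like nuclei 35.7 and 22.3 CPM. Among the classes from MTJ-like to Schwann-like the order was the same in both libraries except that MuSC-like and tenocyte-like nuclei changed places. With clusters built from all variable genes, FAP-like nuclei led Lama2 and pericyte- or smooth muscle-like nuclei led Itgb1 in both libraries, so both leading places of MTJ-like nuclei depend on how that small class is drawn.

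Lama4, the chain of vessel and nerve basement membranes, was led by Schwann-like nuclei with 680 and 641 CPM, before FAP-like nuclei with 417 and 356 CPM, endothelial-like nuclei with 380 and 287 CPM and pericyte- or smooth muscle-like nuclei with 281 and 296 CPM. When nuclei needed 500 genes or a mitochondrial share of at most 1%, no cluster was named Schwann-like, and FAP-like nuclei led Lama4 in both libraries. Without doublet removal, and with nuclei assigned by marker UMIs, FAP-like nuclei led in the library labelled WT and Schwann-like nuclei in that labelled KO. Lymphatic endothelial-like nuclei, only 11 and 6 and thus not ranked, held Lama4 at 1466 and 2499 CPM from 33 and 37 UMIs. Lama5, another vessel chain, was led by endothelial-like nuclei at 104.5 and 81.9 CPM. Lama3, known from epithelial basement membranes, was counted mainly in tenocyte-like nuclei (216 and 103 CPM) and endothelial-like nuclei (201 and 272 CPM), and which of them led differed between the libraries.

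Of the beta chains, Lamb1 was a gene of FAP-like nuclei, with 251 and 192 CPM there. Lamb2, the beta chain of the neuromuscular synapse and of adult fibres, was spread over classes in CPM. Among the 9 ranked classes its highest level in the library labelled WT was 49.2 CPM, in FAP-like nuclei. In that labelled KO it was 94.9 CPM in Schwann-like nuclei, from 4 UMIs. Body myonuclei held 58.9% and 86.6% of all Lamb2 UMIs. Of the UMIs of all genes they held 8704019 of 11430179 in the library labelled WT and 9521087 of 11470460 in that labelled KO. In the nuclei like those of the neuromuscular junction, of which there were only 15 and 8, Lamb2 reached 178.5 CPM (95% interval 81.6 to 339) and 138 CPM (28.4 to 403) from 9 and 3 UMIs, against 17.9 and 50.4 CPM in body myonuclei. The common gamma chain Lamc1 was highest in FAP-like nuclei in the library labelled WT (1229 CPM, with 941 in MTJ-like nuclei) and about equal in both classes in that labelled KO (1202 and 1220 CPM).

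Levels of different genes can be set side by side only per length, here as CPM per kb of gene span, because nuclear RNA holds introns. On this scale MTJ-like nuclei held Lama2 at 25.4 and 26.6, Lamc1 at 8.27 and 10.7 and Lamb2 at 2.54 and 5.95 CPM per kb. Lamb1 and Lama4 had 0 UMIs there in both libraries, which allows up to 27.4 and 27.5 CPM. The other chains were at most 0.288 CPM per kb. The highest chains in these nuclei on this scale were thus alpha 2, gamma 1 and beta 2, although Lamb2 rested on 3 and 7 UMIs. The scale takes counts to rise with gene span. This was not tested, and whether intronic reads were counted is not given.

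FAP-like nuclei held a wider set of chains, with Lama2 at 12.5 and 12.1, Lamc1 at 10.8 and 10.6, Lamb2 at 4.55 and 2.63, Lamb1 at 3.90 and 2.98 and Lama4 at 2.88 and 2.46 CPM per kb. In endothelial-like nuclei Lamb2 (4.01 and 6.21), Lama4 (2.62 and 1.98), Lamc1 (2.597 and 3.14), Lama5 (2.11 and 1.66) and Lama3 (0.808 and 1.09 CPM per kb) were counted and Lama2 was nearly absent at 0.0558 and 0.0349 CPM per kb. MuSC-like nuclei added Lamc3, a rarer gamma chain, at 2.97 and 2.29 beside Lama2 at 6.71 and 5.47 and Lamc1 at 4.80 and 4.302 CPM per kb. In body myonuclei Lamb2 was the highest chain on this scale, at 1.66 and 4.67 CPM per kb. Lamc1 followed there at 0.766 and 1.135, Lama5 at 0.409 and 0.293 and Lama2 at 0.232 and 0.184 CPM per kb.

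Of the integrins, Itgb1, the partner of most alpha subunits, was led by MTJ-like nuclei at 1234 and 1523 CPM, above pericyte- or smooth muscle-like nuclei at 740 and 509 CPM. Its laminin-binding partner Itga7 was spread over pericyte- or smooth muscle-like nuclei (311 and 364 CPM), MuSC-like nuclei (275 and 271), Schwann-like nuclei (214 and 403) and MTJ-like nuclei (192 and 165 CPM). Of the other laminin-binding subunits, Itga3, named after its values were seen, had 189 UMIs in all. Its highest level was in endothelial-like nuclei, at 40.8 and 29.8 CPM from 16 and 8 UMIs. Body myonuclei held 64.1% and 82.5% of its UMIs but only 6.78 and 8.40 CPM, because most UMIs of all genes lay there. Itga6 was held by Schwann-like nuclei (854 and 593 CPM) and endothelial-like nuclei (851 and 570 CPM) at levels that did not differ beyond their counting error. Part of the Itga1 and Itga6 genes overlaps other counted genes on the same strand, so their counts could be split.

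Collagen receptors had other leaders. Itga1 was nearly equal in endothelial-like nuclei (1014 and 793 CPM) and pericyte- or smooth muscle-like nuclei (1002 and 1007 CPM). Itga10 was a gene of tenocyte-like nuclei at 401 and 376 CPM, and Itga11 was shared by tenocyte-like nuclei (179 and 178 CPM) and FAP-like nuclei (119 and 95.3 CPM). Itga2, another collagen-binding subunit, just under 200 UMIs with 196 and named here after its values were seen, was also led by tenocyte-like nuclei at 530 and 294 CPM.

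Receptors of fibronectin and related ligands were broad. Itga5, the fibronectin receptor subunit, was led by FAP-like nuclei at 253 and 131 CPM, and Itga8 by pericyte- or smooth muscle-like nuclei (191 CPM) in the library labelled WT and tenocyte-like nuclei (130 CPM) in that labelled KO. Itgav ranged only from 40.3 to 199.9 CPM over the 9 classes in the library labelled WT and from 46.9 to 189.8 CPM in that labelled KO. Itgb5, a beta partner of Itgav, had its highest level in pericyte- or smooth muscle-like nuclei (197 CPM) in the library labelled WT and FAP-like nuclei (182 CPM) in that labelled KO.

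Itgb6, a beta partner of alpha v that binds the latent form of transforming growth factor beta and is best known from epithelia, was the fibre integrin of this set. Of its UMIs, 97.8% and 98.0% lay in body myonuclei, at 176 and 284 CPM, and MTJ-like nuclei held a like level of 192 and 275 CPM. Of the other classes with 20 nuclei or more in each library, none exceeded 13.8 CPM except macrophage-like nuclei in the library labelled KO, where it stood at 76.8 CPM from 10 UMIs beside the raised myonuclear marker level given above.

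Itga4, an integrin subunit of migrating leukocytes, was led by macrophage-like nuclei with 742.5 and 492 CPM, and no other class exceeded 75.3 CPM. Those nuclei also held 8 lymphocyte markers at 982 and 684 CPM, whose part in the Itga4 level was not tested. With nuclei assigned by marker UMIs, Schwann-like nuclei led Itga4 in the library labelled KO. Itga9, a relative of Itga4, was led by Schwann-like nuclei (194 CPM) in the library labelled WT and tenocyte-like nuclei (157 CPM) in that labelled KO. Among the 17 genes under 200 UMIs, 6 had a leading class whose interval lay above the next in both libraries. These were, named after their values were seen, Itgam (183 and 369 CPM), Itgb2 (91.4 and 115) and Itgal (45.7 and 30.7 CPM), the leukocyte integrins, in macrophage-like nuclei, Itga2 in tenocyte-like nuclei, Lamc3 in MuSC-like nuclei (176 and 136 CPM) and Itgb4 in Schwann-like nuclei.

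Itgb4, the beta partner of alpha 6 in epithelia and nerve sheaths, stood at 505 and 1068 CPM in Schwann-like nuclei and was unevenly spread within them. Of the 32 and 22 nuclei, 13 and 9 held a UMI of Itgb4, and 18 of the 45 UMIs in the library labelled KO came from 1 nucleus. When doublets were kept in the clustering, 21 and 16 of these nuclei fell into a separate, unnamed cluster, which took 23 of the 26 and 44 of the 45 Itgb4 UMIs. The Schwann-like cluster was thus mixed, and most of its Itgb4 RNA lay in nuclei that did not keep that name.

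Within fibres the MTJ-like nuclei stood apart from the body myonuclei in a few genes of the set. In the library labelled WT, Lama2 was 109-fold higher in MTJ-like nuclei (log2 ratio 6.77, 6.67 to 6.88), Itgb1 was 11.0-fold (3.46, 3.19 to 3.72) and Lamc1 10.8-fold higher (3.43, 3.12 to 3.73). In that labelled KO the same folds were 145, 10.8 and 9.44. The direction was the same in both libraries. The 15 and 8 nuclei like those of the neuromuscular junction also held more Lama2 than body myonuclei, with 3629 CPM (3123 to 4195) and 4319 CPM (3490 to 5285).

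Itga5 was 8.84-fold and 3.03-fold higher in MTJ-like than in body myonuclei from 8 and 11 UMIs, and Itga7 4.305-fold and 2.45-fold from 21 and 18 UMIs. For Itgb6 the log2 ratio was 0.13 (-0.57 to 0.75) and -0.04 (-0.61 to 0.47), so no difference was detectable at this depth. Itgav, Itgb5 and Lamb2 also had intervals that included 0 in both libraries.

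**Figure D2:**
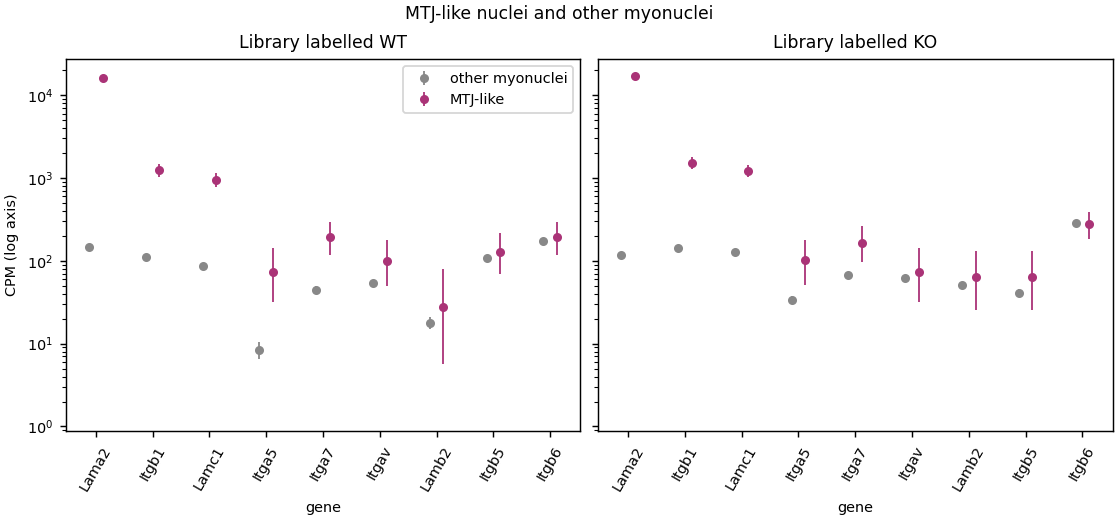
CPM (log axis) of the 9 genes with 10 UMIs or more in MTJ-like nuclei, in MTJ-like nuclei (purple) and other myonuclei (grey), for the library labelled WT on the left and that labelled KO on the right; bars are exact Poisson 95% intervals. Lama2, Itgb1 and Lamc1 lie 9.44-fold or more above the other myonuclei in both libraries, and Itgb6 lies at the same level.

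Between the libraries, body myonuclei held 18 of the 37 genes with 50 UMIs or more in both libraries together, the minimum for a ratio to be read. The other 19 had 2 to 44 UMIs. Among the 18, 4 genes were at least 2-fold higher in the library labelled KO (Itga5, Itgae, Lamb2 and Itga9) and 2 were at least 2-fold lower (Itgb5 and Itga4). Of all 10349 genes with that depth in myonuclei, 4.28% were higher and 3.7% lower by as much. The median log2 ratio of the 18 was 0.58 against -0.13 for all these genes, and 14 of the 18 lay above the latter. Since the whole set was shifted by -0.13, ratios relative to that median are 0.13 higher than those printed. Among the 18, Itgae (13 and 49 UMIs) and Itgad (17 and 33 UMIs) reached the minimum of 50 UMIs mainly through the library labelled KO. At a minimum of 100 UMIs, 3 genes were 2-fold higher and 2 lower, but the share of all genes at that minimum is not given here.

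**Figure D3:**
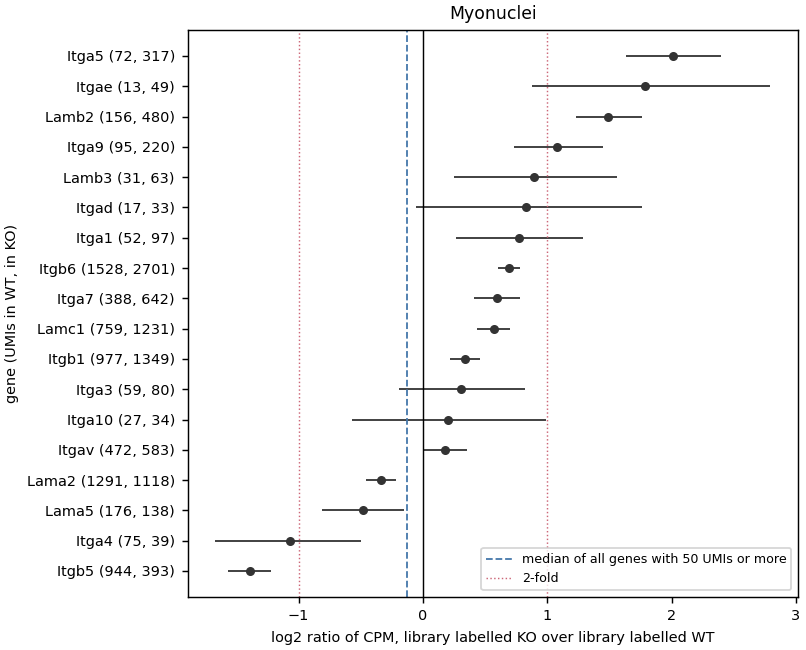
Log2 ratio of CPM in myonuclei, library labelled KO over library labelled WT, for the 18 laminin and integrin genes with 50 UMIs or more (UMIs of WT and KO in brackets). Bars are exact 95% intervals for counting error, the dashed line is the median of all 10349 genes (-0.13) and the dotted lines mark 2-fold. Itga5 (2.01) is at the top and Itgb5 (-1.39) at the bottom.

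Among laminin chains in myonuclei, Lamb2 was counted at 17.9 CPM in the library labelled WT and 50.4 CPM in that labelled KO, from 156 and 480 UMIs, a log2 ratio of 1.49 (1.23 to 1.76). Lamc1 was at 87.2 and 129 CPM (0.57, 0.44 to 0.70). The alpha chain Lama2 went the other way, at 148 and 117 CPM (-0.34, -0.45 to -0.22), as did Lama5 at 20.2 and 14.5 CPM (-0.48, -0.81 to -0.15). Over all body myonuclei the beta and gamma chains were thus higher in the library labelled KO and the alpha chain slightly lower, but Lamc1 was at 96.6 and 97.8 CPM in nuclei with Myh2 as their main myosin gene (0.02, -0.37 to 0.42). The 8 FAP markers, which mark the class with the most Lama2 RNA in all, stood at 55.6 and 27.2 CPM in the same myonuclei, and their part in the Lama2 values was not tested.

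The fibronectin receptor subunit Itga5 showed the largest ratio of the 18 genes. It was counted at 8.27 CPM in the library labelled WT and 33.3 CPM in that labelled KO, from 72 and 317 UMIs, a log2 ratio of 2.01 (1.64 to 2.40) or 4.03-fold. In the library labelled WT 15.8% of all its UMIs lay in body myonuclei, and in that labelled KO 68.6%. For all genes together, these nuclei held 8704019 of 11430179 UMIs in the former and 9521087 of 11470460 in the latter. The MTJ marker list also differed in body myonuclei, at 16.4 and 42.4 CPM for its 5 genes with 1 at 0 in both libraries, and its part in the Itga5 ratio was not tested.

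The alpha v partner Itgb5 was the gene most reduced, at 108.5 CPM in the library labelled WT and 41.3 CPM in that labelled KO, from 944 and 393 UMIs, a log2 ratio of -1.39 (-1.57 to -1.22) or 2.63-fold lower. Another alpha v partner, Itgb6, with the most UMIs of the set in myonuclei, was higher, at 176 and 284 CPM (0.69, 0.60 to 0.78). Itgav itself stood at 54.2 and 61.2 CPM (0.18), with an interval that included 0.

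Over all body myonuclei the subunits of the main laminin receptor of fibres were higher. Itga7 was at 44.6 and 67.4 CPM (0.60, 0.41 to 0.78) and Itgb1 at 112 and 142 CPM (0.34, 0.22 to 0.46), both short of 2-fold. In the cluster led by Ctxn3, Itga7 was at 32.6 and 23.9 CPM (-0.45, -1.14 to 0.22), and in that led by Myh7 and Atf3, Itgb1 was at 101 and 102 CPM (0.01, -0.29 to 0.31). Itga9 passed it at 10.9 and 23.1 CPM (1.08, 0.73 to 1.44), but was 0.82 as a mean over nuclei and 0.98 with clusters from all variable genes. The subunits Itgae and Itga4, known mainly from lymphocytes, were rare in myonuclei, with Itgae at 1.49 and 5.15 CPM from 13 and 49 UMIs (1.78, 0.88 to 2.79) and Itga4 at 8.62 and 4.10 CPM from 75 and 39 UMIs (-1.07, -1.67 to -0.50). Itga4 fell short of 2-fold once the ratio was taken relative to all genes (-0.94). It was at 17.2 and 6.43 CPM (-1.42, -2.53 to -0.44) in nuclei with Myh4 as their main myosin gene, which held 42 of its 75 UMIs in the library labelled WT, and at 5.99 and 5.28 CPM (-0.18, -1.08 to 0.70) in those with Myh1. By contrast Lamb3, an epithelial beta chain named after its values were seen, at 3.56 and 6.62 CPM (0.89), passed 2-fold on that relative scale (1.02).

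The sequences before the start sites of Itga5, Lamb2 and Itgb5 are shown because these were the genes with 200 UMIs or more whose ratios in myonuclei were furthest from 0, in either direction. They are the bases upstream of the annotated start in build GRCm38.p6 (RefSeq, with the Lamb2 window ended before its GENCODE start), 5′ to 3′ on the gene's strand. Capitals mark matches on either strand to TTCNNNGAA, the palindrome bound by STAT factors and BCL6, to GGGCGG, the GC box bound by Sp1, and to CAGCTG, an E-box of the kind bound by myogenic factors.
Itga5, chr15:103366792-103367041, minus strand: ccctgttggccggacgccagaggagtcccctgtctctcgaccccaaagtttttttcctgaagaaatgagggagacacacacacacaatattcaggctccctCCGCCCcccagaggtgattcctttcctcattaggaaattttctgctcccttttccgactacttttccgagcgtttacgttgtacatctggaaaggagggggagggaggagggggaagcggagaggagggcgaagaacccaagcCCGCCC
Lamb2, chr9:108479612-108479735, plus strand: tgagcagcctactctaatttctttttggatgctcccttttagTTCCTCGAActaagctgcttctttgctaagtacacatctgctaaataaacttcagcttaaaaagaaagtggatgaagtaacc
Itgb5, chr16:33829415-33829664, plus strand: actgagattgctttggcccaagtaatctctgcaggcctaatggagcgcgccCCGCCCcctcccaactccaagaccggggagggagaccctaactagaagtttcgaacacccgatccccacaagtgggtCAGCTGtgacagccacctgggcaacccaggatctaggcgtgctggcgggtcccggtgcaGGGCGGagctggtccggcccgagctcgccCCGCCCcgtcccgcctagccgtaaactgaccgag

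The Itga5 window held 2 GC boxes, the Itgb5 window 3 GC boxes and 1 E-box, and the Lamb2 window 1 match to TTCNNNGAA. Windows of 250 bases were available for 23 of the 37 genes, and among them TTCNNNGAA was found for Lamb2 and Itga10 only. It was found in 7.02% of all 32851 promoters of the table, its narrower form TTCCTNGAA, which the Lamb2 window also held, in 1.31%, GGGCGG in 32.7% and CAGCTG in 13% of them. A match is a description of the letters and not a binding site.

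The ratio of Itga5 was not set by 1 group of myonuclei. Its log2 ratio was above 0 with its interval in all 5 myonuclear clusters (numbered 0, 1, 2, 3 and 5 by size among all clusters), from 1.45 (0.37 to 2.69) in cluster 5 to 3.33 (1.90 to 5.26) in that led by Myh4. Split by the myosin heavy chain gene with the most UMIs in a nucleus, it was 2.20 in Myh4 nuclei (the fastest fibres) and 2.41 in Myh1 nuclei but 0.57 (-0.08 to 1.26) in Myh2 nuclei. In the library labelled WT Myh2 nuclei already held 31.8 CPM against 5.33 and 5.77 CPM in Myh4 and Myh1 nuclei, and in that labelled KO the levels were 47.1, 24.5 and 30.7 CPM. Thus the levels of the 3 fibre groups were closer in the library labelled KO.

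Lamb2 was higher in each of the 3 myosin groups (1.48, 1.61 and 1.28 in Myh4, Myh1 and Myh2 nuclei) and in each cluster, although the interval included 0 in cluster 5 (0.33, -0.49 to 1.20). Itgb5 was lower in each, from -0.37 (-0.69 to -0.05) in the cluster led by Myh7 and Atf3 to -2.66 (-3.40 to -1.98) in cluster 5. The numbers of nuclei per myosin group differed between the libraries, with 691 and 605 Myh4 nuclei, 1154 and 1161 Myh1 nuclei and 230 and 477 Myh2 nuclei. A further 298 and 788 myonuclei, 12.6% and 25.8%, had a tie or no UMI for the first place among the Myh genes and stand outside this split.

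Itga9 differed by fibre type in the library labelled WT and hardly in that labelled KO. Its level was 21.3, 3.99 and 10.6 CPM in Myh4, Myh1 and Myh2 nuclei of the former and 25.1, 24.4 and 23.5 CPM in the latter, so that its ratio was 0.24 (-0.38 to 0.85) in Myh4 nuclei and 2.61 (1.88 to 3.43) in Myh1 nuclei. Itgb6 was a gene of the less fast fibres, at 84.9, 226 and 244 CPM in the library labelled WT and 91.1, 392 and 359 CPM in that labelled KO. Its ratio was 0.10 (-0.21 to 0.41) in Myh4 nuclei, 0.79 in Myh1 nuclei and 0.56 in Myh2 nuclei.

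Lama2 went in both directions within fibres. It was lower in the library labelled KO in the cluster led by Ctxn3 (215 and 75.0 CPM, -1.52, -1.86 to -1.19) and in that led by Ppara (121 and 79.1 CPM, -0.62), and higher in that led by Myh7 and Atf3 (75.7 and 115 CPM, 0.60, 0.29 to 0.92). Its value over all myonuclei, -0.34, is therefore a sum of unlike groups.

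**Figure D4:**
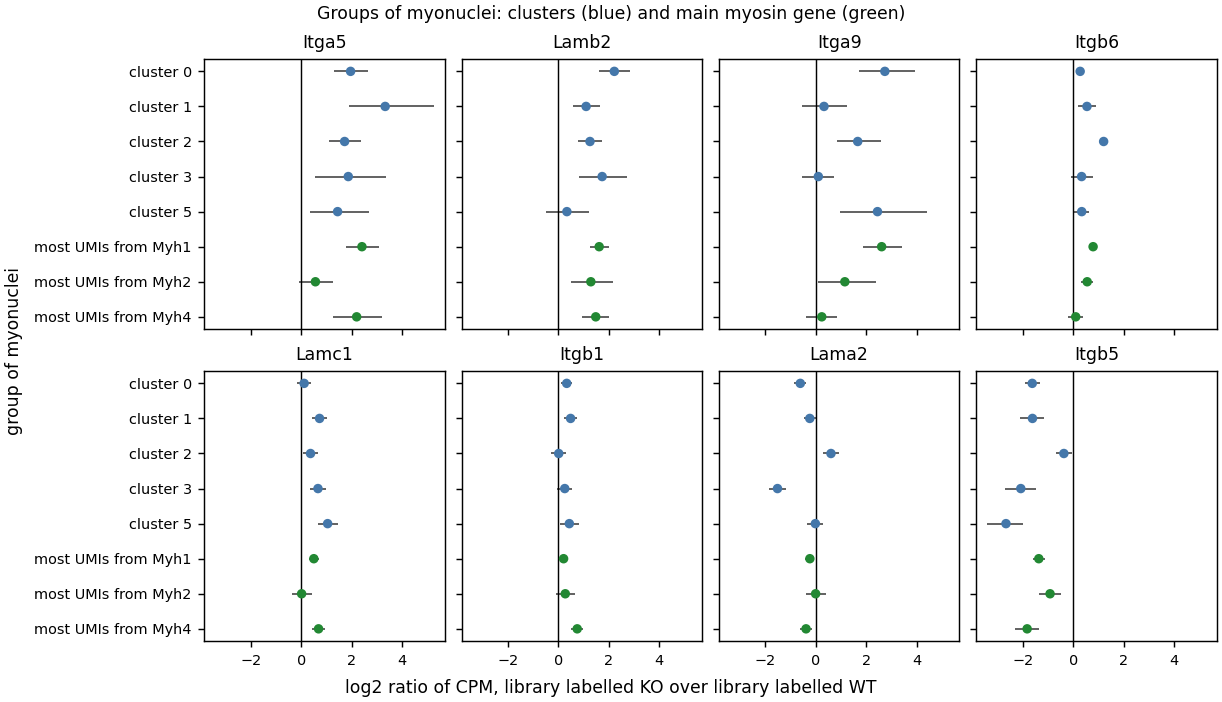
Log2 ratio of CPM (library labelled KO over library labelled WT) of 8 genes in the 5 myonuclear clusters (blue) and in nuclei with most UMIs from Myh1, Myh2 or Myh4 (green), with exact 95% intervals for counting error. Clusters 0, 1, 2 and 3 are those led by Ppara, Myh4, Myh7 and Atf3, and Ctxn3, and cluster 5 is given by its number. Itga5 lies right of 0 and Itgb5 left of 0 in all 8 groups, while Lama2 lies on both sides.

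Outside the myofibre body, 0 or 1 gene of the set differed by 2-fold in each class. With 4 to 15 genes read per class, these counts are too small to set apart from the shares of all genes given beside them. In MTJ-like nuclei none of the 4 genes with enough UMIs differed by 2-fold, while 4.69% of all genes were higher and 8.32% lower by as much. These were Lama2 (0.07, -0.02 to 0.16), Itgb1 (0.30, -0.03 to 0.64), Lamc1 (0.37, -0.01 to 0.76) and Itgb6 (0.52, -0.33 to 1.40). In FAP-like nuclei none of 15 genes was 2-fold higher or lower, where 1.56% and 2.35% of all genes were, and the median ratio of the 15 was -0.23 against -0.08 for all genes. Lama2 and Lamc1, their most abundant chains, had ratios of -0.04 (-0.09 to 0.00) and -0.03 (-0.16 to 0.09).

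In MuSC-like nuclei none of 5 genes passed 2-fold, with 1.69% of all genes higher and 2.56% lower, and Lama2 was at 4293 and 3497 CPM (-0.30, -0.44 to -0.16). Endothelial-like nuclei held 10 genes, of which Itga5 alone was 2-fold lower at 130 and 59.6 CPM from 51 and 16 UMIs (-1.13, -2.04 to -0.29; -0.65 as a mean over nuclei), beside 1.71% of all genes higher and 3.38% lower. Itga6 there was at 851 and 570 CPM (-0.58, -0.87 to -0.30). In pericyte- or smooth muscle-like nuclei Itga8 alone of 9 genes was 2-fold lower, at 191 and 92.8 CPM from 70 and 27 UMIs (-1.04, -1.74 to -0.38; -0.43 as a mean over nuclei), beside 1.07% higher and 1.9% lower of all genes. Itga8 was a leading gene of the smaller, smooth muscle-like cluster of that class, which had 11 and 6 nuclei.

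Tenocyte-like nuclei held 9 genes, with Lama3 2-fold lower at 216 and 103 CPM from 35 and 15 UMIs (-1.07, -2.05 to -0.16), beside 2.85% of all genes higher and 3.87% lower. In macrophage-like nuclei Itgam, a subunit of complement receptor 3, was 2-fold higher among 4 genes, at 183 and 369 CPM from 32 and 48 UMIs (1.01, 0.34 to 1.71), beside 2.92% of all genes in each direction. In the same nuclei the 6 macrophage markers stood at 5095 and 7161 CPM, the 8 lymphocyte markers at 982 and 684 CPM with 0 and 2 of them at 0, and the myonuclear markers at 2673 and 9651 CPM, and their part in the Itgam ratio was not tested. In Schwann-like nuclei Itgb4 was 2-fold higher among 5 genes (1.08, 0.35 to 1.84), beside 9.84% of all genes higher and 5.91% lower, and its direction depends on which nuclei the cluster takes: with doublets kept in the clustering, 10 and 6 of these nuclei stayed Schwann-like with 3 and 1 Itgb4 UMIs, and the ratio was -0.60.

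The ratios of several genes had intervals on opposite sides of 0 in different classes. Itga5 was 4.03-fold higher in myonuclei and 1.93-fold lower in FAP-like nuclei (253 and 131 CPM, -0.95, -1.31 to -0.61). Lamb2 was 2.81-fold higher in myonuclei and at 49.2 and 28.4 CPM in FAP-like nuclei (-0.79, -1.61 to -0.03). Itgb1 was slightly higher in myonuclei, and lower in FAP-like nuclei (-0.38, -0.69 to -0.07) and pericyte- or smooth muscle-like nuclei (-0.54, -0.84 to -0.25). The difference between classes was not tested, since each genotype had 1 library.

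**Figure D5:**
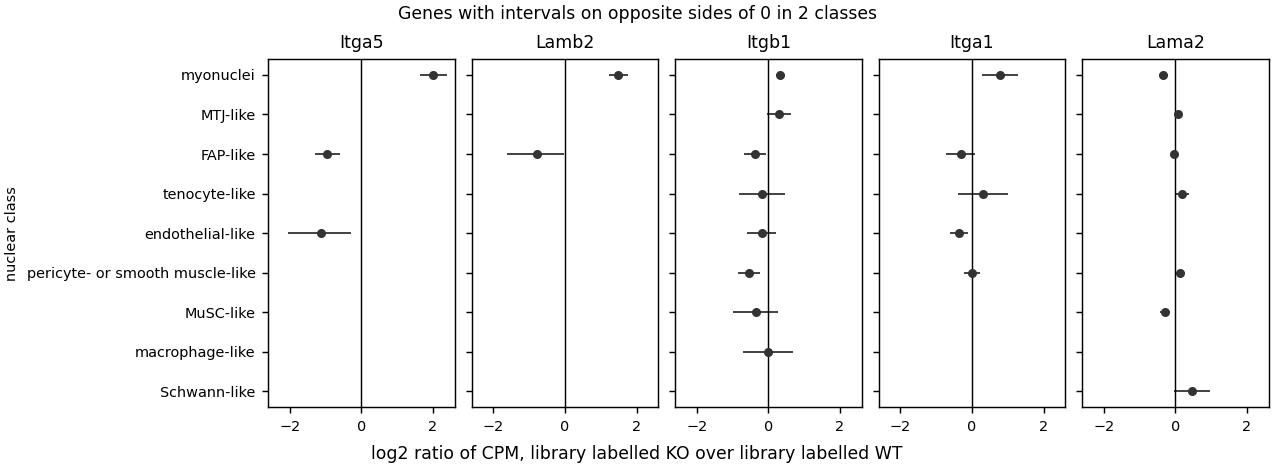
Log2 ratio of CPM (library labelled KO over library labelled WT) of Itga5, Lamb2, Itgb1, Itga1 and Lama2 in each class in which the gene had 50 UMIs or more, with exact 95% intervals for counting error. Itga5 and Lamb2 lie right of 0 in myonuclei (2.01 and 1.49) and left of 0 in FAP-like nuclei (-0.95 and -0.79).

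The partners of these genes were read from 3 lists. Of 20 integrin activators and adaptors, which link integrins to actin, 16 had enough UMIs in myonuclei, none was 2-fold higher and 1 was lower, beside 4.28% higher and 3.7% lower of all genes there. This was Tns3, a tensin of focal adhesions, at 28.4 and 13.9 CPM (-1.03, -1.35 to -0.72), and the median ratio of the 16 was 0.02. Of 12 enzymes that build the laminin-binding sugar of dystroglycan, 10 had enough UMIs and none passed 2-fold in either direction, with a median of -0.09.

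Of 9 basement membrane partners and other laminin receptors, 6 had enough UMIs in myonuclei, with a median ratio of 0.44. None was 2-fold higher and Ntn4, a netrin that binds the gamma chain of laminin, was lower at 17.6 and 7.46 CPM (-1.24, -1.66 to -0.82). Named after their values were seen, the laminin receptor Dag1 was at 336 and 569 CPM (0.76, 0.70 to 0.83), perlecan (Hspg2) at 41.4 and 64.3 CPM (0.64, 0.45 to 0.83) and agrin (Agrn) at 27.9 and 43.1 CPM (0.63, 0.39 to 0.86). Outside myonuclei, Vcl, which encodes the adaptor vinculin, was lower in FAP-like (133 and 58.3 CPM, -1.19) and endothelial-like nuclei (306 and 123 CPM, -1.32) and higher in macrophage-like nuclei (148.5 and 353 CPM, 1.25), in each class the only call among 13, 11 and 5 activators and adaptors with enough UMIs there. Of all genes, 2.35% and 3.38% were lower in the first 2 classes and 2.92% higher in the last. Col4a2, a chain of basement membrane collagen, was higher in tenocyte-like nuclei (160 and 383 CPM, 1.26), 1 of 2 genes of its list with enough UMIs, beside 2.85% of all genes.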

How the data were processed

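The authors deposited counts, one UMI count matrix per library with 32285 genes, made per the labels with Cell Ranger 7.0.0 on mm10. The labels name a multiome chip and the methods a 3′ kit, and whether intronic reads were counted is not given in the sources used here (it is the default of that Cell Ranger version). Barcodes (3798 and 4096, 11974138 and 12026013 UMIs) were kept with 200 to 5000 genes and at most 5% mitochondrial UMIs. Since Scrublet's own threshold marked 7 and 2 nuclei, 115 and 134 top-scoring nuclei were left out instead, a rate of 0.8% for each 1000 barcodes. Seurat 5.3.0 integrated the libraries on those of 2000 variable genes (1828) left without the 37 genes and 397 genes at least 2-fold different between the libraries in nuclei taken as myonuclear by a marker share of 3% (30 components, resolution 0.5, 17 clusters).

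Clusters were named from fixed markers, by a rule set after the clusters were seen. A cluster led by Lockd, Diaph3 and Top2a stayed unnamed. The 37 genes and the partner lists were chosen with earlier results of these data known. UMIs were summed per class and library. Genes were named by a rule: those with 200 UMIs or more, those 2-fold apart with 50 UMIs or more in a class, and the 5 with most UMIs in myonuclei. Ratios have exact intervals conditional on the sum of both counts, levels have exact Poisson intervals, and a count of 0 allows up to 3 UMIs. UMIs of a gene with a near-identical copy or an overlapping gene may be split. Gene spans are from GENCODE M21 (GRCm38), which held all 37 genes. The calculation of the ratio and its interval was tested on simulated Poisson counts for myonuclei and FAP-like nuclei only. Alternatives were scaling by TMM (edgeR 4.0.16) or median of ratios, other filters, clusterings and UMI minimums.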

Additional observations from a re-analysis of the deposited data

Results flagged for a closer look

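Some genes had intervals above 0 in one nuclear class and below 0 in another, so the direction between the libraries differed by class; with 1 library per genotype this difference was not tested. The log2 ratio of Itga5 in myonuclei exceeded that in FAP-like nuclei by 2.96 and that in endothelial-like nuclei by 3.14. The log2 ratio of Lamb2 in myonuclei exceeded that in FAP-like nuclei by 2.28. That of Itga1 in myonuclei exceeded that in endothelial-like nuclei by 1.13. For Itgb1 the gap of myonuclei over FAP-like nuclei was 0.71 and over pericyte- or smooth muscle-like nuclei 0.88. Lama2 in tenocyte-like nuclei stood 0.53 above myonuclei and 0.49 above MuSC-like nuclei. Relative to the median of all genes in FAP-like nuclei (-0.08), the intervals of Lamb2 and Itgb1 in those nuclei included 0. The intervals cover counting error only.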

How the results depend on the processing

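No paired analysis was possible because each genotype had 1 library, and for the same reason no replicate could be left out. Of 207 values of the 15 named ratios under alternatives, 183 moved by less than their counting interval, 22 by more and 2 reversed; those of Itgb4 in Schwann-like nuclei, which were -0.60 without doublet removal and -0.73 with nuclei assigned by marker UMIs. Of the 11 ratios past 2-fold, 21 values under alternatives fell short of it. Of the 20 genes with 200 UMIs or more, 11 kept the leading class of each library without doublet removal, 12 at a mitochondrial share of at most 1% and 8 by marker UMIs, and of the 6 clear ones 2 kept it by marker UMIs. The 2 members lower in myonuclei became 1 with all variable genes, by marker UMIs and under TMM or median-of-ratios scaling. In MTJ-like nuclei 0 became 2 with all variable genes. In FAP-like nuclei 0 became 1 by marker UMIs, as a mean over nuclei and at 20 UMIs. At 100 UMIs the 1 in tenocyte-, endothelial-, pericyte- or smooth muscle-, macrophage- and Schwann-like nuclei became 0, and at 20 UMIs endothelial-, MuSC-, macrophage- and Schwann-like nuclei held 2. As a mean over nuclei it became 0 in endothelial-, pericyte- or smooth muscle- and Schwann-like nuclei, without doublet removal 0 in endothelial- and Schwann-like nuclei, and by marker UMIs or median-of-ratios scaling 0 in Schwann-like nuclei. The 2 partners lower in myonuclei became 1 without doublet removal, by marker UMIs and under both scalings; in tenocyte-like nuclei 1 became 2 by marker UMIs and TMM, in MuSC-like nuclei 0 became 1 as a mean over nuclei, and in macrophage-like nuclei 1 became 0 without doublet removal and as a mean over nuclei. The cause was not tested. Leaving out cluster 5 or Meg3, Rian and Mirg from the UMI total was added after seeing the data; without cluster 5 Itga4 was -0.996 and Itga9 0.97. MTJ-like nuclei could not be assigned by marker UMIs, and no cluster was Schwann-like at 500 genes or a mitochondrial share of at most 1%.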
